A study of Mus musculus with 16 samples.

Results

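The genes of the RNA polymerase I and III machinery were followed in mouse embryonic stem cells in which the RNA helicase DDX10 carried an auxin-inducible degron. They were chosen by name from the deposited expression table and comprised 38 of its 14552 genes. Of these, 3 encode subunits of Pol I alone (Polr1a, Polr1b, Polr1e), 2 encode subunits shared by Pol I and Pol III (Polr1c, Polr1d), 5 encode subunits shared by Pol I, II and III (Polr2e, Polr2f, Polr2h, Polr2k, Polr2l) and 8 encode subunits of Pol III (Polr3a to Polr3g and Polr3k). A further 7 encode initiation and termination factors of Pol I (Taf1a to Taf1d, Ubtf, Rrn3, Ttf1), 2 encode the nucleolar phosphoproteins Tcof1 and Nolc1, 3 encode TFIIIB subunits (Brf1, Brf2, Bdp1), 7 encode TFIIIA or TFIIIC (Gtf3a, Gtf3c1 to Gtf3c6), and Maf1 encodes a repressor of Pol III. All 38 had a mean of at least 10 normalized counts, and so all were among the 13355 genes tested.

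Pol I transcribes the ribosomal RNA gene repeats in the nucleolus, and Pol III transcribes the 5S ribosomal RNA, the transfer RNAs and other short RNAs. At the Pol I promoter the factor UBTF and the TBP-containing complex SL1 recruit polymerase bound to RRN3. At most Pol III promoters TFIIIC binds within the gene and places TFIIIB, which recruits the polymerase, while TFIIIA is needed for the 5S gene. In growing stem cells both polymerases are known to be highly active. The libraries were made from purified mRNA, so the values describe the mRNAs of the machinery, and its RNA products were not measured here.

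The cells were the E14 line with the genotype Ddx10-AID, Tir1, where AID is the degron and Tir1 the plant receptor that directs tagged protein to degradation in the presence of auxin. Groups were exposed to 500 µM auxin (indole-3-acetic acid) for 2, 4, 6 or 12 h, for 1 day or for 2 days. A withdrawal group had 2 days of auxin followed by 2 days without it, and a group without auxin is called untreated. All 8 groups, untreated included, carried both alleles and grew on gelatin in medium with fetal bovine serum, LIF (1000 U/mL), 3 µM CHIR99021 and 1 µM PD0325901. Each group had 2 libraries, 16 in all. Auxin-treated cells without the degron were not analysed here, so effects of auxin and of DDX10 loss cannot be told apart, and the labels do not say whether the line is 1 clone. Whether the paired libraries of each group are from different cultures is not recorded in the labels, and the p-values then cover the spread among these libraries alone, which could be technical. These are bulk samples, in which fewer cells expressing a gene and less RNA per cell cannot be told apart.

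From the size of the smallest value steps, the libraries held an estimated 13600000 to 17500000 counted reads. The SD of the log2 difference between the 2 libraries of a group, over the 38 genes, was 0.14 to 0.23 in 7 groups and 0.33 after 1 day. Over all tested genes it was largest in untreated cells, the reference of most comparisons, at 0.62. It was 0.53 after 1 day and 0.37 to 0.41 in the other groups. The targeted gene, Ddx10, had 1433 and 1509 normalized counts in untreated cells, 1847 and 2046 after 2 h, and 997 and 1041 after 2 days. Its mRNA does not check the degradation, which acts on the protein. All 8 of the embryonic stem cell markers examined were present, with summed levels of 80842 to 92267 at the 4 short times (8 libraries, 2 to 12 h), against 102166 to 117855 in the 8 other libraries. No marker of primitive endoderm, mesoderm, neural cells or fibroblasts that the table lists was at 0 in every library. The sum of 7 of 8 primitive endoderm markers, most of it Lama1, was 1293 and 508 in untreated cells, 2007 to 2187 at 2 to 6 h, and 1374 and 1313 at 12 h. It was 2177 and 2147 after 1 day, 2643 and 2899 after 2 days, and 1166 and 1077 after withdrawal. Of the 5 tested, 3 were called higher after 1 day and 3 after 2 days, where Lama1 changed by 1.86 and Gata6 by 2.37 on the log2 scale. The sums ran from 1776 to 3059 for 8 of 8 mesoderm and neural markers, and from 175 to 312 for 4 of 6 fibroblast markers. The sum of 5 of 6 markers of 2-cell-like cells, the Zscan4 genes among them, was 753 and 331 in untreated cells, lay between 267 and 373 at 2 to 12 h, and was 1643 and 2177 after 1 day, 3851 and 3458 after 2 days, and 1507 and 1572 after withdrawal. The 2-cell-like sum rose at 1 day and 2 days, the times of the late results below, and stayed above untreated after withdrawal. The primitive endoderm sum was above untreated at every auxin time, already at 2 h and least so at 12 h. The stem cell sum was lower at 2 to 12 h, but its 8 markers did not all fall. After 2 h, Pou5f1, Sox2 and Dppa5a were called lower (log2 change -0.42, -0.25 and -0.91) and Tdgf1 higher (0.47). Nanog, Zfp42, Esrrb and Klf4 were not called there. At 4 h and at 6 h, 4 of the 8 were called lower and 0 higher, and at 12 h 3 lower and 1 higher. The part of these markers in the results below was not tested.

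The machinery did not move as 1 block. After 2 days of auxin 14 of the 38 genes were lower and 2 were higher than in untreated cells, and the other 22 did not pass the test. Nolc1, Polr3g and Tcof1 fell to 0.468, 0.555 and 0.575 of their untreated levels, while Gtf3c1 rose to 1.94 times its untreated level. The largest fall was in the less abundant Polr2k, with a log2 change of -1.24 (86.5 and 114 normalized counts, against 227 and 248 in untreated cells). After withdrawal none of the 38 differed from untreated cells at the threshold. A gene is called here at an adjusted p below 0.05, from limma on log2(normalized count + 1) with Benjamini-Hochberg adjustment over all 13355 genes, and every log2 change is on that scale. Folds of low genes are therefore understated.

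Counts of called genes are given with the share of all tested genes called in the same comparison and direction. After 2 h, 9 of the 38 were lower and 2 higher, against 8.45% and 6.75% of all tested genes. After 4 h, 8 were lower (10.2% of all genes) and 4 higher (8.86%). After 6 h, 9 were lower (13.4%) and 3 higher (10.9%). After 12 h, 16 were lower (18.3%) and 2 higher (14.8%). After 1 day, 11 were lower (17.7%) and 4 higher (15.9%). After 2 days, the 14 lower genes stand beside 23.8% of all genes and the 2 higher ones beside 21%. As shares of the 38 genes, the lower calls were 23.7%, 21.1%, 23.7%, 42.1%, 28.9% and 36.8% in time order, each above the share in all genes. The higher calls were 5.26%, 10.5%, 7.89%, 5.26%, 10.5% and 5.26%, close to the share in all genes after 2 and 4 h and below it at the 4 later times. The median log2 change of the 38 genes was 0.09 after 2 h, -0.21 after 12 h and -0.18 after 2 days, where that of all tested genes was 0.01, 0.02 and -0.01. Over the 11 comparisons made, 28 of the 38 genes were called at least once. The 10 never called were Bdp1, Gtf3c2, Gtf3c3, Gtf3c5, Gtf3c6, Polr1e, Polr3a, Polr3e, Polr3f and Taf1a. Of the 116 calls on the 38 genes, 61 held under every alternative setting, and the others were lost under at least 1. Those lost included calls on Polr2e at 2 h, 4 h and 1 day, on Polr2h at 2 h and 4 h, and on Polr1c at 2 h and 1 day. The 1 day calls on Polr2f and Polr2l were also lost, while their 2 h and 4 h calls held.

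**Figure D1:**
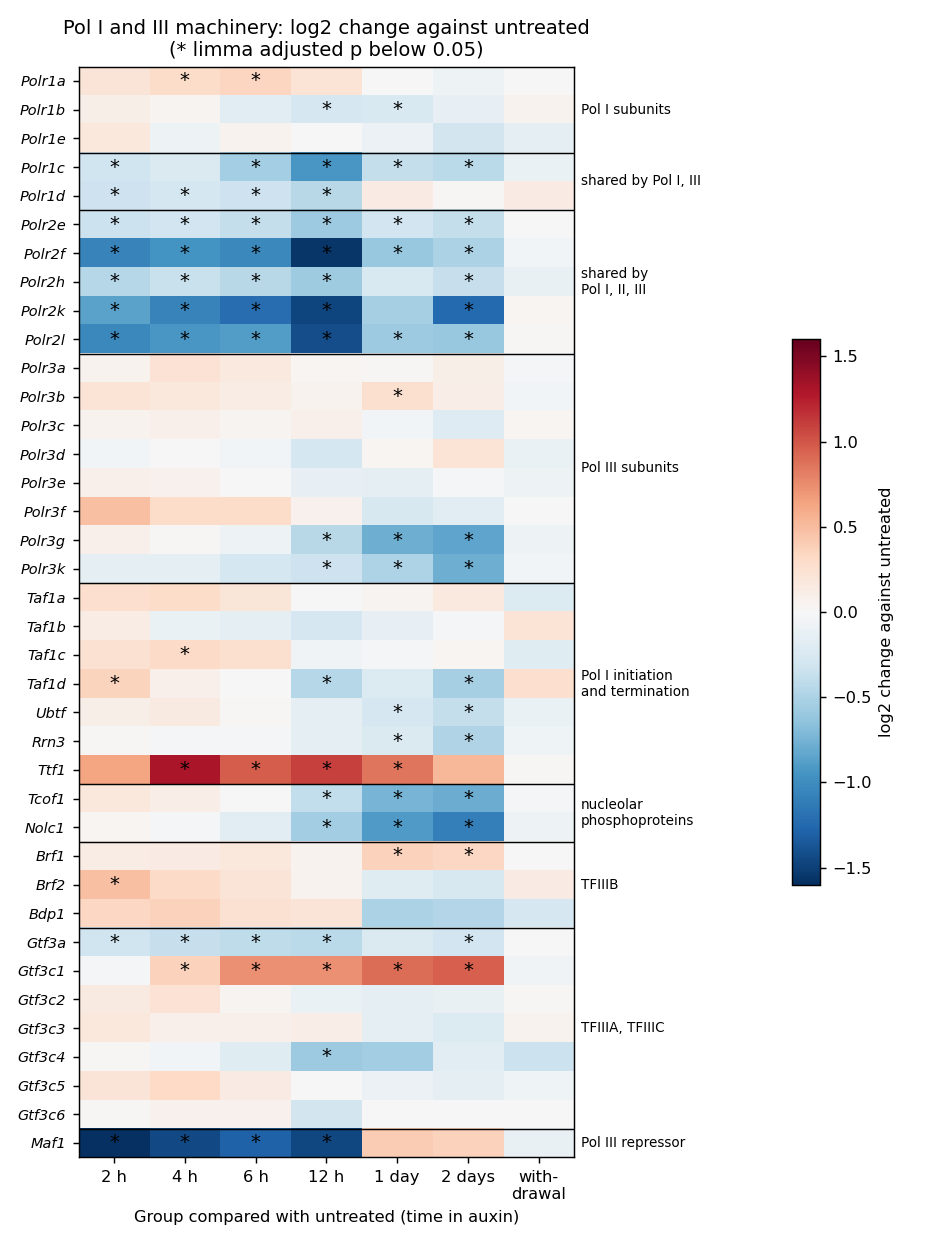
Log2 change against untreated cells for the 38 genes (rows, grouped by role) in the 7 other groups (columns, 2 libraries each), with an asterisk where the adjusted p is below 0.05. Polr2f, Polr2l and Maf1 are lower in each column of 2 to 12 h than in any later one, Polr2k is lowest at 12 h and next lowest at 2 days, Nolc1, Tcof1, Polr3g and Polr3k fall toward 2 days, Gtf3c1 is higher from 4 h on, and the withdrawal column holds no asterisk.

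The nucleolar phosphoproteins fell late and together. NOLC1 shuttles between nucleolus and cytoplasm as a chaperone of small nucleolar ribonucleoproteins, and TCOF1 (treacle) binds UBTF and Pol I. Nolc1 had 6172 and 5724 normalized counts in untreated cells, 6210 and 5946 after 2 h, 5823 and 5761 after 4 h, 5099 and 5395 after 6 h, 4037 and 4040 after 12 h, 3317 and 3055 after 1 day, 2677 and 2886 after 2 days, and 5712 and 5551 after withdrawal. Its levels at 12 h, 1 day and 2 days lay below every other library, and withdrawal libraries lay just below the untreated ones. The log2 change against untreated cells was -0.56 after 12 h (adjusted p = 3.2e-05), -0.90 after 1 day (SE 0.07, adjusted p = 5.2e-07) and -1.10 after 2 days (SE 0.07, adjusted p = 5.6e-08).

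Tcof1 had 8687 and 7862 normalized counts in untreated cells, 9250 and 9309 after 2 h, 8760 and 9040 after 4 h, 8130 and 8349 after 6 h, 6179 and 6390 after 12 h, 5349 and 4553 after 1 day, 4688 and 4823 after 2 days, and 7986 and 8205 after withdrawal. The 6 libraries of 12 h, 1 day and 2 days were again the lowest, and the withdrawal libraries lay within the untreated range. It fell by 0.40 on the log2 scale after 12 h (adjusted p = 0.0011), by 0.74 after 1 day (adjusted p = 6.2e-06) and by 0.80 after 2 days (adjusted p = 1.9e-06). All of these calls on Nolc1 and Tcof1 held under every alternative.

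**Figure D2:**
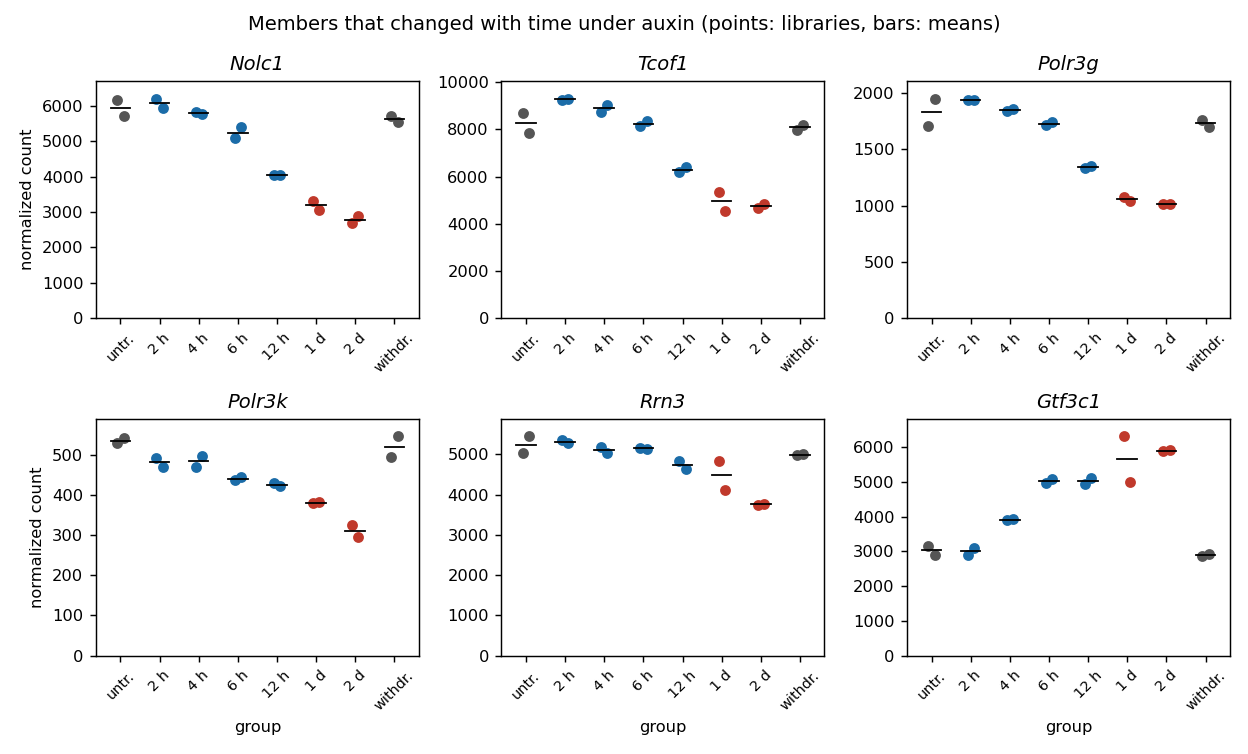
Normalized counts of Nolc1, Tcof1, Polr3g, Polr3k, Rrn3 and Gtf3c1 in each group, with a point per library and a bar at the mean of 2. The first 5 genes are lowest after 2 days and Gtf3c1 is highest between 6 h and 2 days, and the withdrawal points lie near the untreated ones.

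Among the 7 initiation and termination factors of Pol I, 3 were lower after 2 days (Rrn3, Ubtf, Taf1d) and none was higher. RRN3 (TIF-IA) carries Pol I to the promoter and is a point at which growth signals act on it. Rrn3 had 3746 and 3765 normalized counts after 2 days, against 5022 and 5450 in untreated cells, a log2 change of -0.48 (SE 0.07, adjusted p = 0.00015) that held under every alternative. After 1 day its libraries differed, with 4846 and 4116. The call there (-0.23, adjusted p = 0.029) was lost in 2 of the 4 fits with 1 library left out (-0.35 to -0.11). The libraries of 2 to 6 h, at 5029 to 5351, lay inside the untreated range.

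UBTF coats the active ribosomal RNA genes. Ubtf had 4817 and 4563 normalized counts after 2 days, against 6010 and 6185 in untreated cells, a log2 change of -0.38 (SE 0.06, adjusted p = 0.00027) that held under every alternative. After 1 day it had 5191 and 4970 (-0.26, adjusted p = 0.0055), and this call did not hold when only the untreated and 1 day groups were fitted (adjusted p = 0.23). Between 2 and 12 h the libraries ran from 5520 at 12 h to 6852 at 4 h and were not called against untreated cells.

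Taf1d, a subunit of SL1, moved in both directions over time. It had 1917 and 1627 normalized counts in untreated cells, 2195 and 2334 after 2 h, 1865 and 1881 after 4 h, 1764 and 1768 after 6 h, 1348 and 1228 after 12 h, 1605 and 1429 after 1 day, 1207 and 1232 after 2 days, and 2226 and 2025 after withdrawal. The libraries of 2 h and of withdrawal were the highest, and those of 12 h and 2 days the lowest. It was lower after 12 h (-0.46, adjusted p = 0.0017) and after 2 days (-0.53, SE 0.09, adjusted p = 0.00036), both under every alternative. It was higher after 2 h (0.36, adjusted p = 0.02), a call that was lost in 3 of the 4 fits with 1 library left out (0.24 to 0.48). Of the 75-base stretches of its transcript, 9.2% also occur in the transcripts of Gm13487, so some reads could have been assigned to either gene.

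Ttf1 here is transcription termination factor 1, which stops Pol I at the end of the ribosomal RNA gene. It had 438 and 493 normalized counts in untreated cells, 593 and 878 after 2 h, 1050 and 1256 after 4 h, 888 and 925 after 6 h, 1060 and 922 after 12 h, 1031 and 683 after 1 day, 670 and 671 after 2 days, and 572 and 390 after withdrawal. Every library from 2 h to 2 days lay above both untreated libraries. The log2 change was 1.30 after 4 h (SE 0.22, adjusted p = 0.0013), 0.96 after 6 h (adjusted p = 0.0062) and 1.09 after 12 h (adjusted p = 0.0016), under every alternative. After 1 day it was 0.85 (adjusted p = 0.0081), which did not hold without the first 1 day library (adjusted p = 0.08).

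The other SL1 genes gave few calls. Taf1c had 823 and 874 normalized counts after 4 h, against 702 and 670 in untreated cells (0.31, adjusted p = 0.036), a call lost without any 1 of these 4 libraries (adjusted p up to 0.19). Of its transcript, 14.8% is overlapped on the opposite strand by Dnaaf1, and whether counting used strand is not given in the sources used here. Taf1b, at 338 to 545, was not called in any group against untreated cells. Taf1a, at 192 to 309 over all libraries, was called in no comparison.

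None of the 3 subunits of Pol I alone was called after 2 days. Polr1a, the largest catalytic subunit, had 5054 and 5069 normalized counts after 6 h, against 3923 and 4082 in untreated cells, a log2 change of 0.34. This call was lost in 3 of the 4 fits with 1 library left out (log2 change 0.31 to 0.37). The 4 h call (0.29, adjusted p = 0.046) was lost without any 1 of its 4 libraries (adjusted p up to 0.17), and the 2 day libraries had 3690 and 3866. Polr1b, the second largest subunit, had 2406 and 2448 after 12 h, against 2893 and 2972 in untreated cells (-0.27, adjusted p = 0.019). It was also called lower after 1 day, where its libraries had 2719 and 2267 (-0.24, adjusted p = 0.035). Each of these calls was lost in 3 of the 4 fits with 1 library left out. The log2 change there was -0.29 to -0.25 at 12 h and -0.37 to -0.11 at 1 day. Polr1e, the PAF53 subunit, ranged from 609 to 897 and was called nowhere.

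Of the 8 Pol III subunits, Polr3g and Polr3k were lower after 2 days and none was higher. POLR3G belongs to the subcomplex that contacts TFIIIB at initiation and is known for high levels in human pluripotent stem cells, where its paralog POLR3GL is the form of most differentiated cells. Polr3g had 1707 and 1951 normalized counts in untreated cells, 1935 and 1935 after 2 h, 1842 and 1856 after 4 h, 1712 and 1744 after 6 h, 1331 and 1351 after 12 h, 1078 and 1045 after 1 day, 1011 and 1013 after 2 days, and 1759 and 1700.3 after withdrawal. The 6 libraries of 12 h, 1 day and 2 days lay below the 10 others. The log2 change was -0.44 after 12 h (adjusted p = 0.00042), -0.78 after 1 day (adjusted p = 3.7e-06) and -0.85 after 2 days (SE 0.07, adjusted p = 9.7e-07), under every alternative. Polr3gl, which is no member of the group of 38, had 43.5 and 72.9 normalized counts after 2 days, against 79.5 and 98.3 in untreated cells, and was not called (-0.64, adjusted p = 0.051).

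POLR3K takes part in RNA cleavage and termination by Pol III. Polr3k had 325 and 296 normalized counts after 2 days, against 528 and 541 in untreated cells, a log2 change of -0.78 (SE 0.10, adjusted p = 2.5e-05) that held under every alternative. After 1 day it had 379 and 382 (-0.49, adjusted p = 0.0017), and this call did not hold when only the 2 groups were fitted (adjusted p = 0.13). After 12 h it had 429 and 421 (-0.33, adjusted p = 0.019), a call lost in 3 of the 4 fits with 1 library left out (-0.35 to -0.31).

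Polr3a and Polr3b encode the catalytic core. Polr3a ranged from 1276 to 1601 over all libraries and was never called. Polr3b was called higher after 1 day, with 2266 and 1979 against 1767 and 1794 in untreated cells (0.25, adjusted p = 0.029). This call was lost in 3 of the 4 fits with 1 library left out (log2 change 0.15 to 0.35). Polr3c and Polr3d were called only between withdrawal and 2 days. Polr3e (1118 to 1416) and Polr3f (464 to 1008) were called in no comparison.

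Gtf3c1 rose and stayed higher from 6 h to 2 days. It encodes the largest TFIIIC subunit, which contacts the internal promoter of transfer RNA genes. It had 3169.6 and 2899 normalized counts in untreated cells, 2907 and 3097 after 2 h, 3889.8 and 3934 after 4 h, 4957 and 5082 after 6 h, 4947 and 5110.4 after 12 h, 6314 and 4987 after 1 day, 5877 and 5905 after 2 days, and 2881 and 2937 after withdrawal. The 10 libraries from 4 h to 2 days lay above the other 6 libraries. The log2 change against untreated cells was 0.73 after 6 h (adjusted p = 0.0001), 0.73 after 12 h (adjusted p = 4e-05), 0.89 after 1 day (adjusted p = 6.9e-06) and 0.96 after 2 days (SE 0.09, adjusted p = 2e-06), under every alternative. The 4 h call (0.37, adjusted p = 0.013) was lost in 3 of the 4 fits with 1 library left out (0.30 to 0.43).

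No other TFIIIC gene was called higher. Gtf3c4 had 1346 and 1310.2 normalized counts after 12 h, against 1892 and 2080.3 in untreated cells (-0.58, adjusted p = 0.044). This call was lost without any 1 of these 4 libraries (log2 change -0.65 to -0.51). Its 1 day libraries stood far apart, at 1897 and 955. Gtf3c2, Gtf3c3, Gtf3c5 and Gtf3c6 were called in no comparison. Of the Gtf3c2 transcript, 56.2% is overlapped on the same strand by Gm29609, so its level of 3137 to 4614 is uncertain.

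Gtf3a encodes TFIIIA, the factor specific to the 5S gene. It had 945 and 1088 normalized counts after 12 h, against 1498 and 1256 in untreated cells, the change at which its log2 value was lowest (-0.44, adjusted p = 0.0035). It was called lower at every time but 1 day, and each call was lost when 1 library was left out, with adjusted p values of 0.055 to 0.25. The value is uncertain because 67.1% of the transcript is overlapped by Mtif3 on the opposite strand.

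The TFIIIB genes gave no call that held under every alternative. Brf1, a subunit used at most Pol III promoters, had 561 and 591 normalized counts after 2 days, against 479 and 434 in untreated cells (0.34, SE 0.12, adjusted p = 0.029), and after 1 day it had 557 and 625 (0.37, adjusted p = 0.024). Neither call held without 1 library (adjusted p up to 0.14 and 0.12), and 20.3% of its transcript is overlapped on the opposite strand by 9230104M06Rik. Brf2, which replaces BRF1 at the U6 type of promoter, had 389 and 348 after 2 h, against 268 and 257 in untreated cells (0.49, adjusted p = 0.049), lost without any 1 of these 4 libraries (adjusted p up to 0.22). Bdp1 had 907 and 1040.1 after 2 days, against 1129.7 and 1589 in untreated cells, and was not called.

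MAF1 binds Pol III and keeps it from TFIIIB when nutrients or growth signals are short. Maf1 had 1278 and 1123 normalized counts in untreated cells, 381 and 413 after 2 h, 301 and 641 after 4 h, 387 and 620 after 6 h, 396 and 482 after 12 h, 1508 and 1677 after 1 day, 1572 and 1530 after 2 days, and 1198 and 1013 after withdrawal. The 8 libraries of 2 to 12 h reached at most 641, and the 8 others had at least 1013. The log2 change was -1.59 after 2 h (SE 0.27, adjusted p = 0.0023) and -1.45 after 12 h (adjusted p = 0.0011), under every alternative. After 4 h it was -1.44 (adjusted p = 0.0029, or 0.052 with only the 2 groups fitted), and after 6 h it was -1.29 (adjusted p = 0.0042, or 0.062 without the first 6 h library). The 1 day and 2 day levels, above those of untreated cells, did not pass the test.

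The subunits shared by Pol I, II and III were called lower from 2 h on: all 5 after 2, 4, 6 and 12 h, 3 after 1 day and all 5 after 2 days. They encode small proteins at the core and outer face of each polymerase. Polr2l (RPB10) had 1067 and 895 normalized counts in untreated cells, 479 and 474 after 2 h, 462 and 563 after 4 h, 486 and 570.4 after 6 h, 326 and 408 after 12 h, 645 and 660 after 1 day, 707 and 579 after 2 days, and 991 and 992 after withdrawal. The log2 change was -1.04 after 2 h (SE 0.14, adjusted p = 0.00061) and -1.42 after 12 h (adjusted p = 7.9e-06), under every alternative, and -0.61 after 2 days (adjusted p = 0.0035, or 0.051 without the second 2 day library). Of its 75-base stretches, 15.8% also occur in other annotated genes.

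Polr2f (RPB6) had 1293 and 1068 normalized counts in untreated cells, 614 and 513 after 2 h, 536 and 682 after 4 h, 556 and 598 after 6 h, 367 and 433 after 12 h, 633 and 938 after 1 day, 864 and 796 after 2 days, and 1154 and 1128 after withdrawal. Every exposed library lay below both untreated libraries. It fell by 1.06 on the log2 scale after 2 h (SE 0.17, adjusted p = 0.0017) and its log2 change after 12 h was -1.56 (adjusted p = 1.8e-05), both under every alternative. The 2 day call (-0.50, adjusted p = 0.031) was lost in 3 of the 4 fits with 1 library left out (-0.64 to -0.36). Of its transcript, 27.7% is overlapped on the opposite strand by 1700088E04Rik.

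Polr2k (RPB12) is the least abundant of these genes. It had 227 and 248 normalized counts in untreated cells, 131 and 131 after 2 h, 91.6 and 138 after 4 h, 102 and 100.4 after 6 h, 87.0 and 82.8 after 12 h, 138 and 195 after 1 day, 86.5 and 114 after 2 days, and 259 and 228 after withdrawal. All 12 exposed libraries lay below the 4 others. The log2 change was -1.22 after 6 h (adjusted p = 0.0015), -1.47 after 12 h (adjusted p = 0.00019) and -1.24 after 2 days (SE 0.22, adjusted p = 0.00044), under every alternative, while 19.5% of its 75-base stretches also occur in other genes. Its 2 h and 4 h calls did not hold with 1 library left out (adjusted p up to 0.11 and 0.071).

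Polr2e (RPB5) and Polr2h (RPB8) changed less. Polr2e had 3294 and 3089 normalized counts after 2 days, against 4370.2 and 3926 in untreated cells, a log2 change of -0.38 (SE 0.08, adjusted p = 0.0015) that held under every alternative, as did those of -0.38 after 6 h and -0.58 after 12 h. Polr2h had 705 and 702 after 12 h, against 1138 and 958 in untreated cells (-0.57, adjusted p = 0.0018, under every alternative). Its 2 day call (-0.36, adjusted p = 0.02) was lost in 2 of the 4 fits with 1 library left out (-0.49 to -0.24).

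Of the subunits shared by Pol I and Pol III, Polr1c (AC40) was lower at every time but 4 h. It had 2362 and 2105 normalized counts in untreated cells, 1891 and 1687 after 2 h, 1802 and 1999 after 4 h, 1503 and 1563 after 6 h, 1122 and 1224 after 12 h, 1589 and 1846 after 1 day, 1718 and 1580.2 after 2 days, and 2147 and 1989 after withdrawal. The 12 h libraries were the lowest. The log2 change was -0.54 after 6 h (adjusted p = 0.0017), -0.93 after 12 h (adjusted p = 1.3e-05) and -0.44 after 2 days (SE 0.10, adjusted p = 0.0028), under every alternative. Polr1d (AC19), its partner, had 1269 and 1447 after 12 h, against 1943 and 1764 in untreated cells (-0.45, adjusted p = 0.0012), and 1920.4 and 1828 after 2 days, where it was not called. The 12 h call on Polr1d held under every alternative, and those at 2, 4 and 6 h (-0.33, -0.28 and -0.33) did not, with adjusted p up to 0.17 when 1 library was left out.

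**Figure D3:**
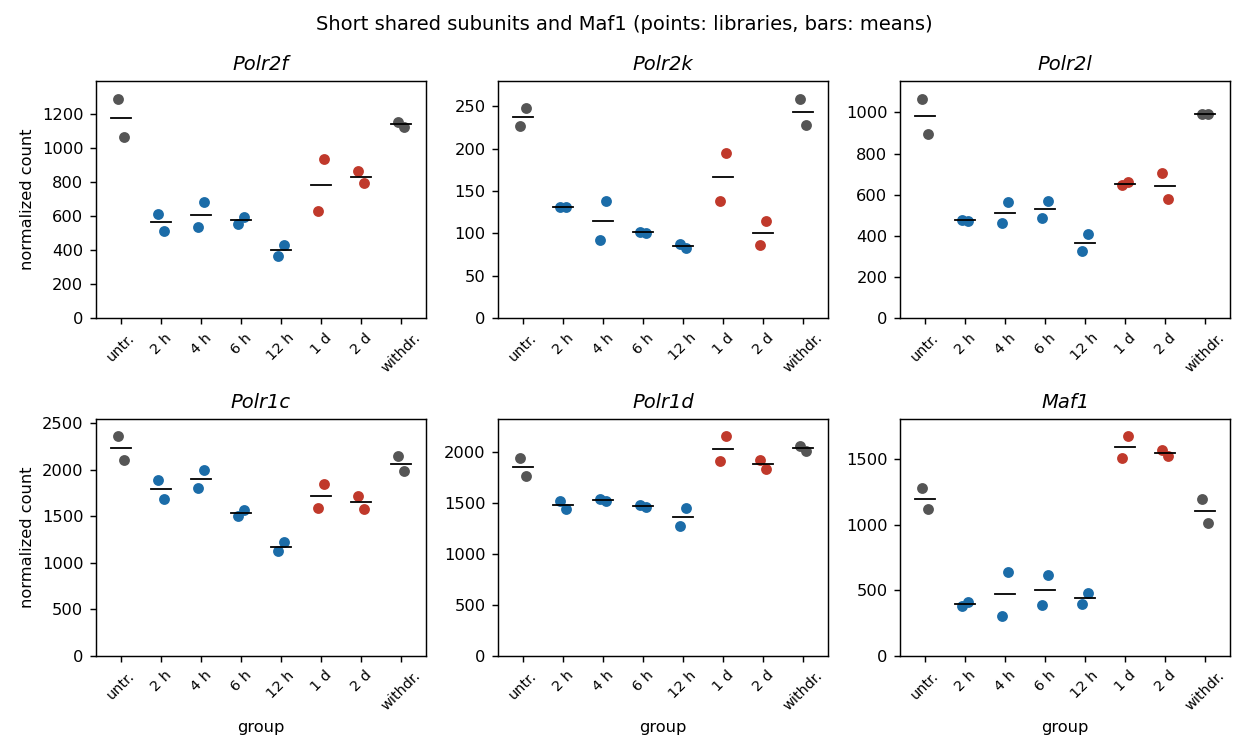
Normalized counts of Polr2f, Polr2k, Polr2l, Polr1c, Polr1d and Maf1 in each group, with a point per library and a bar at the mean of 2. Polr1d, Polr2l and Maf1 have all 8 libraries of 2 to 12 h below the 8 others, and Polr2f, Polr2k and Polr1c are lowest after 12 h.

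For 3 of the 38 genes, or 7.89%, all 8 libraries of 2 to 12 h were below all 8 other libraries, where 4.43% of all tested genes had this order. These were Polr1d (1269 to 1533, against 1764 to 2151), Polr2l (326 to 570.4, against 579 to 1067) and Maf1 (301 to 641, against 1013 to 1677). None of the 38 had the opposite order, which 3.17% of all tested genes had. No label gives a date or batch for these libraries, so the exposure time and any difference in how they were handled cannot be told apart. A comparison within the 4 short times does not cross that divide.

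The genes called lower after 2, 4 and 6 h against untreated cells had transcripts of 601 to 1743 bases. The 9 genes called lower after 2 h have longest coding transcripts of 601 bases (Polr2k) to 1743 bases (Maf1), with a median of 1196, while the 27 genes not called have a median of 3998. The 2 genes called higher after 2 h, Taf1d and Brf2, were also short, at 1148 and 1899 bases. After 12 h the 16 lower genes ran from 601 to 7127 bases (median 1538, against 3409 for those not called), and the 11 lower at 12 h against 2 h had a median of 3236, against 2677 for those not called. Across genes, the Spearman correlation of the 2 h log2 change with transcript length was 0.48 over the 38 genes and 0.35 over all tested genes with a length. After 12 h it was 0.63 and 0.35, after 2 days 0.22 and 0.10, and between 12 h and 2 h 0.27 and 0.11. These are descriptions over genes that share the same libraries, and genes are not independent replicates. The part of transcript length in the low values of 2 to 12 h against untreated cells was not tested.

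**Figure D4:**
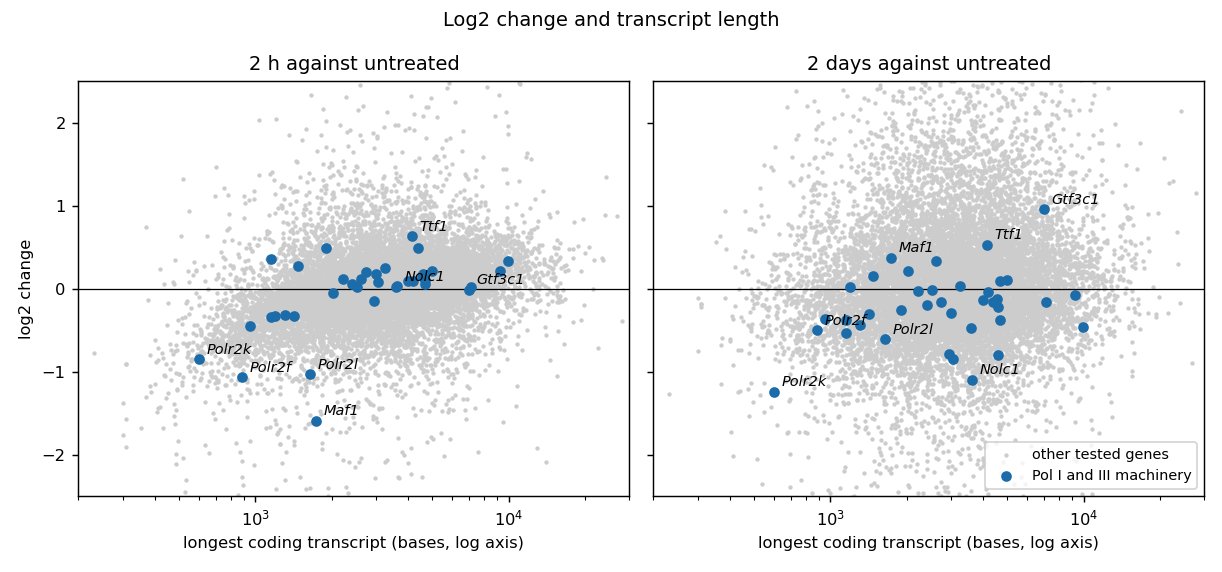
Log2 change against untreated cells (vertical axes) by longest coding transcript in bases (horizontal log axes), after 2 h and after 2 days, with the 38 genes in blue and all other tested genes in grey. After 2 h Polr2k, Polr2f, Polr2l and Maf1 are short and low, and after 2 days Nolc1 is low and Gtf3c1 high at greater lengths.

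Whether the late changes also appear within the short times was read from 12 h against 2 h, which shares no library with 2 days against untreated. Both comparisons come from the same fit and use the same estimate of each gene's spread, so their calls are not fully independent. At 12 h, 11 of the 38 genes were lower and 1 was higher than at 2 h, against 13.7% and 10.9% of all tested genes. The median log2 change of the 38 was -0.23 and that of all tested genes -0.02. By role, 4 of 7 Pol I initiation and termination factors, both nucleolar phosphoproteins, and 1 each of the other groups of subunits were lower, with 1 of 7 TFIIIA and TFIIIC genes lower and 1 higher. No TFIIIB gene was called, nor was Maf1.

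Of the 38 genes, 7 were called lower in both comparisons (Polr1c, Polr2e, Polr3g, Taf1d, Ubtf, Tcof1, Nolc1). They are 63.6% of the 11 lower at 12 h and 50% of the 14 lower after 2 days. Over all tested genes, 1262 were lower in both, which is 69% of 1829 and 39.7% of 3179. Gtf3c1 was the 1 gene of the 38 higher in both.

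Between 12 h and 2 h, Taf1d had the lowest adjusted p, with 1348 and 1228 normalized counts at 12 h, against 2195 and 2334 at 2 h (-0.81, SE 0.09, adjusted p = 4.1e-05). Nolc1 changed by -0.59 (adjusted p = 4.4e-05), Tcof1 by -0.56 (adjusted p = 0.00014) and Polr3g by -0.53 (adjusted p = 0.00019). Polr1c changed by -0.61 (adjusted p = 0.00065), Polr1b by -0.36 (adjusted p = 0.0053), and Gtf3c1 by 0.74 (adjusted p = 6.7e-05). These 7 calls held under every alternative. Those on Ubtf, Taf1b, Taf1c, Polr2e and Gtf3c4 did not, with adjusted p values of 0.013, 0.025, 0.03, 0.039 and 0.0497 that reached 0.12, 0.18, 0.21, 0.29 and 0.18 when 1 library was left out.

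At 4 h against 2 h, 1 gene of the 38, Gtf3c1, was higher (0.38, adjusted p = 0.042) and none was lower, with 1.77% and 0.681% of all tested genes called. That call was lost without any 1 of the 4 libraries (adjusted p up to 0.26). The 0 lower calls of limma stand beside 1 gene at an unadjusted p under 0.05. At 6 h against 2 h, Gtf3c1 was higher (0.74, adjusted p = 0.00021, under every alternative) and Taf1d lower (-0.36, adjusted p = 0.03), against 4.45% and 3.35% of all tested genes, and the Taf1d call was lost without any 1 of the 4 libraries (adjusted p up to 0.21).

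**Figure D5:**
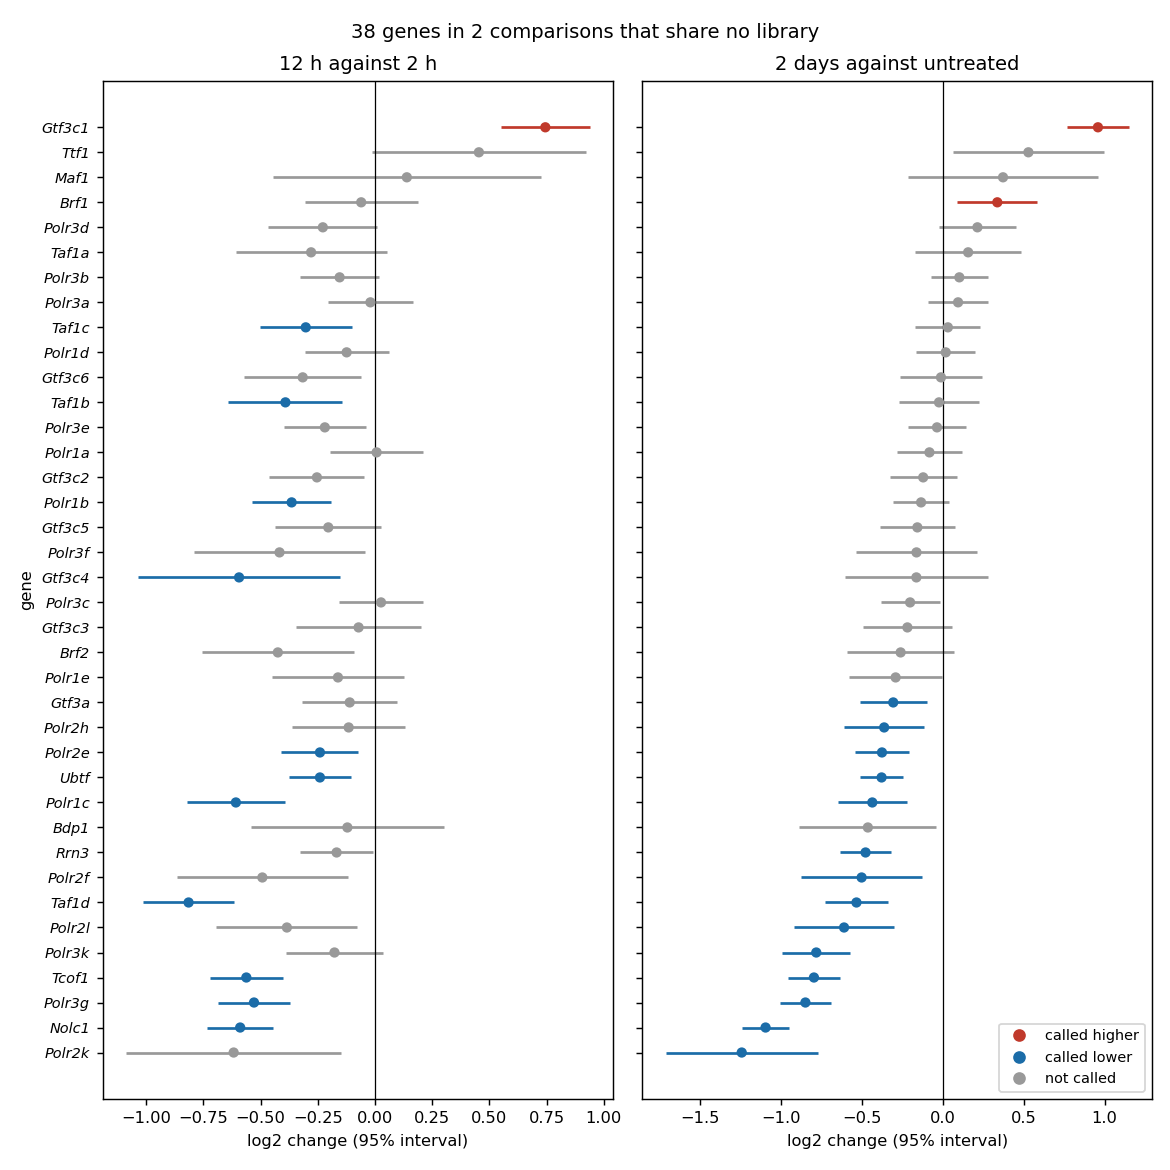
Log2 change with its 95% interval for the 38 genes, 12 h against 2 h (left) and 2 days against untreated (right), on axes of different scale and ordered by the change after 2 days. Nolc1, Polr3g, Tcof1, Taf1d, Polr1c, Ubtf and Polr2e are lower and Gtf3c1 higher in both panels.

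After withdrawal the late changes were no longer seen. Against untreated cells limma called 0 of the 38 genes in either direction, where 1.72% of all tested genes were higher and 1.07% lower. At an unadjusted p under 0.05, 1 gene was higher (Taf1d, log2 change 0.27, adjusted p = 0.142) and 0 were lower. Without the first untreated library, 1 gene was called higher. The 95% intervals of the log2 difference from untreated cells were -0.22 to 0.07 for Nolc1, -0.19 to 0.13 for Tcof1, -0.24 to 0.08 for Polr3g, -0.25 to 0.17 for Polr3k and -0.25 to 0.13 for Gtf3c1. Over the 38 genes the intervals ran from -0.78 (Gtf3c4) to 0.51 (Polr2k). A p that misses the threshold does not show equal levels, and these intervals give the differences that remain possible.

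Against 2 days of auxin, withdrawal left 14 of the 38 genes higher and 3 lower, beside 22.2% and 19.1% of all tested genes. With upper-quartile rescaling of the libraries the split was 11 higher and 7 lower. This comparison shares the 2 day libraries with 2 days against untreated, so the values are set side by side and not counted as a repeat. Nolc1 had 5712 and 5551 normalized counts after withdrawal, against 2677 and 2886 after 2 days (1.02, adjusted p = 1.3e-07). Polr3g changed by 0.77, Tcof1 by 0.77, Taf1d by 0.80, Polr3k by 0.74, Polr2k by 1.28, Rrn3 by 0.41, Polr2e by 0.37, Polr2l by 0.63 and Ubtf by 0.28, and Gtf3c1 by -1.02, all with adjusted p from 1.5e-06 to 0.0032 and all under every alternative. The calls on Polr1c (0.33), Gtf3a (0.30), Polr3c (0.24), Polr2f (0.46), Polr3d (-0.32) and Brf1 (-0.33) each failed when 1 library was left out, with adjusted p up to 0.26.

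Promoters are shown for 4 of the 8 genes called the same way in 12 h against 2 h and in 2 days against untreated, as the members whose changes the results turn on. Each sequence is the 250 bases before the annotated start from RefSeq, build GRCm38.p6, read 5′ to 3′ on the strand of the gene. The windows are chr19:46075597-46075846 on the plus strand for Nolc1, chr13:81711014-81711263 on the minus strand for Polr3g, chr17:46248046-46248295 on the minus strand for Polr1c, and chr7:125707689-125707938 on the minus strand for Gtf3c1. Capitals mark GGGCGG, the core of the GC box, and CCAAT, the core of the CCAAT box, on either strand.
Nolc1: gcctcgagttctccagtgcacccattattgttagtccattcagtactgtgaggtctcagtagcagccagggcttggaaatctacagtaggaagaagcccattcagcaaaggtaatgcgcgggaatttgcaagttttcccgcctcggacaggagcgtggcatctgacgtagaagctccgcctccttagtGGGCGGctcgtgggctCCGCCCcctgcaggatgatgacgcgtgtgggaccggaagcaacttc
Polr3g: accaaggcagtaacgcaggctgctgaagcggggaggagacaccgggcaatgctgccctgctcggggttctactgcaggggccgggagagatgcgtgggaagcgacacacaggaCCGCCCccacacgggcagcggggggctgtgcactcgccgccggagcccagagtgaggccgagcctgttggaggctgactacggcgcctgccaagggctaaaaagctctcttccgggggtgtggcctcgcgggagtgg
Polr1c: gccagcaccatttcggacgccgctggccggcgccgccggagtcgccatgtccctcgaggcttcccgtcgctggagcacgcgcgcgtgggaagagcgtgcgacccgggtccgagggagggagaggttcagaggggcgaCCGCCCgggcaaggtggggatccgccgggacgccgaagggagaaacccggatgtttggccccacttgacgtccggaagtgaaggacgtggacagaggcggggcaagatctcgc
Gtf3c1: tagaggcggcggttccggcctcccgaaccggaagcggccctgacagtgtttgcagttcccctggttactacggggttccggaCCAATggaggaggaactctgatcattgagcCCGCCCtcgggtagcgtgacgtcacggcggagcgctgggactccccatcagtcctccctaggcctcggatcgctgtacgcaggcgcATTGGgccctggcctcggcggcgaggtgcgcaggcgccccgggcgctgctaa

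Nolc1 holds GGGCGG at 62 and 46 bases before its start, Polr3g at 137 and Polr1c at 113. Gtf3c1, the gene that rose, holds CCAAT at 168 and 52 bases and GGGCGG at 138. In the GENCODE annotation used for transcript lengths, Gtf3c1 starts at chr7:125707780, inside its window, and the CCAAT at 52 bases then lies within the gene. Polr1c also starts inside its window there, at chr17:46248054, and its match lies outside the gene. No 2 of these matches overlap, and none of the 4 windows holds CACGTG, the E-box bound by MYC among other factors. The table had promoters for 31 of the 38 genes, 40 in all. GGGCGG was in 21 of these 40 promoters, from 16 genes, and in 32.7% of all 32851 promoters of the table. CCAAT was in 10 of the 40, from 8 genes, and in 33.8% of all. CACGTG was in 4 of the 40, from 3 genes (Gtf3c6, Polr3c, Rrn3), and in 6.02% of all. The table covers noncoding genes as well, so the shares are a description. A match is not a bound site, and its absence from this window says nothing of the factor.

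Other genes of the same pathways were counted from lists of their own. Of 14 further Pol I and III genes, 7 were lower and 0 higher after 2 days, beside 23.8% and 21% of all tested genes, and 4 were lower and 0 higher at 12 h against 2 h, beside 13.7% and 10.9%. Tbp, the TATA-binding subunit of both SL1 and TFIIIB, had 923 and 931 normalized counts after 2 days, against 1368 and 1315 in untreated cells (-0.53, adjusted p = 0.00018). Ssb, the La protein that binds the ends of Pol III transcripts, had 3236 and 3325, against 6048 and 5639 (-0.83, adjusted p = 2.2e-06). The remaining Pol I subunits Twistnb, Cd3eap and Znrd1 changed by -0.42, -0.33 and -0.57. Ptrf (Cavin1), known as a Pol I transcript release factor and a caveolar coat protein, was the 1 gene of the 14 called after withdrawal against untreated cells, with 163 and 158 normalized counts against 402 and 367 (-1.25, adjusted p = 0.00014).

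Of 8 subunits of Pol II alone, 4 were lower and 1 higher after 2 h and after 4 h, 6 lower and 2 higher after 6 h, 6 lower and 1 higher after 12 h, 3 lower and 2 higher after 1 day, and 4 lower and 2 higher after 2 days. The shares of all tested genes given above for these times, such as 8.45% lower after 2 h and 23.8% after 2 days, apply here too. Polr2a, the largest Pol II subunit, was among the higher ones, with 13139 and 13609 normalized counts, against 10287 and 9715 in untreated cells (0.42, adjusted p = 0.00029), while Polr2d, Polr2i and Polr2j were lower. Of 7 regulators of the 2 machineries, 3 were higher and 1 lower after 2 days, beside 21% and 23.8% of all tested genes. The lower one was Myc, an activator of both, with 46.6 and 67.1 normalized counts after 2 days, against 438 and 435 in untreated cells (-2.94, adjusted p = 4.2e-08), and with 386 and 354 after withdrawal. The higher ones were Rb1 (1.12, adjusted p = 0.0011), Trp53 (0.30, adjusted p = 0.0016) and Baz2a (0.54, adjusted p = 0.0011), each known to restrain Pol I or Pol III.

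The genes spanned a wide range of levels. As mean normalized counts per kilobase of the longest coding transcript over the 16 libraries, Polr2e was highest at 2985, followed by Tcof1 at 1599, Taf1d at 1505, Polr1d at 1423, Rrn3 at 1353, Polr1c at 1338, Nolc1 at 1331 and Ubtf at 1239. The lowest were Polr3k at 151.5, Brf2 at 149.7 and Bdp1 at 138.2.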

How the data were processed

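RNA-seq libraries were made from mRNA of E14 cells, 2 per group in 8 groups. The submitters' processing notes name Trim Galore, STAR, RSEM, DESeq2 and the mm10 build (GRCm38); no source used here gives versions or settings. The authors deposited 1 table of normalized counts, treated here as a signal, since whole reads could not be recovered: 72.6 to 99.0% of low values in genes with 1 transcript lay within 0.1 of a whole step, against 36.1 to 44.9% in other genes. The values were tested as log2(value + 1) with limma 3.58.1 in R 4.3.3, keeping genes with a mean of at least 10. All 16 libraries entered 1 fit with a mean per group (8 residual degrees of freedom, trended variance), and p-values were adjusted by Benjamini-Hochberg over all tested genes within each of 11 comparisons, called below 0.05. In simulated data for 2 days against untreated, the procedure called 26.9%, 61.2% and 81.8% of genes given log2 changes of 0.5, 1 and 2. Of 119 calls, 6 were false. Far fewer genes were changed there than were called here, so these rates need not hold for the real data. A gene that was not called may still have changed. Any of the 38 genes could be named, with full values for up to 6 called per direction and comparison and for those carrying a result; other genes came from fixed lists. The members and lists were chosen with earlier results of these data known. Transcript lengths, overlaps and shared 75-base stretches came from GENCODE M21 (14467 of 14552 gene IDs matched) and promoters from RefSeq. Alternatives were a pseudocount of 5, no filter, upper-quartile rescaling, a replicate block, the 2 compared groups fitted alone, and each library left out, run for the 38 genes.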

Additional observations from a re-analysis of the deposited data

Results flagged for a closer look

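Taf1d is listed because its change against untreated cells was positive at 1 time and negative at others, and the difference between the times passed the test. Its log2 change was -0.46 after 12 h and 0.36 after 2 h, a difference of -0.81 (SE 0.09, limma adjusted p = 4.1e-05). It was -0.53 after 2 days and 0.36 after 2 h, a difference of -0.89 (adjusted p = 3.7e-06). Both libraries of 12 h and of 2 days lay below both libraries of 2 h. The higher level at 2 h against untreated cells was itself lost when 1 library was left out, as given with the Taf1d values.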

How the results depend on the processing

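Of the 116 calls on the 38 genes, none changed direction. Pseudocount 5 kept all 116, no filter 113, the replicate block 109, upper-quartile rescaling 104 and the fit of the 2 compared groups alone 78. Of 464 refits with 1 library left out, 320 kept the call. With the 2 groups fitted alone, the higher calls were 0 after 2 h, 1 after 4 h and 1 after 1 day. The lower calls there were 3 after 2 h, 2 after 4 h, 3 after 1 day, 1 at 4 h against 2 h, 4 at 6 h against 2 h, 20 at 12 h against 2 h and 6 after withdrawal against 2 days. After 2 h, the higher calls were 1 without the filter, 1 with the replicate block and 1 with upper-quartile rescaling. Withdrawal against 2 days gave 7 lower with that rescaling, and 4 h against 2 h gave 0 higher with the block. No effect shared by same-numbered replicates was visible: over 28 pairs of groups the correlation of same-numbered deviations was -0.061 to 0.066. The labels do not say whether same-numbered libraries were handled together.

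With 1 library left out, calls against untreated cells (higher, then lower) ran 0 to 1 and 3 to 8 after 2 h, 1 to 3 and 3 to 8 after 4 h, 2 to 3 and 6 to 10 after 6 h, 2 to 2 and 12 to 15 after 12 h, 2 to 4 and 7 to 16 after 1 day, 1 to 3 and 10 to 14 after 2 days, and 0 to 1 and 0 to 0 after withdrawal. They ran 0 to 0 and 0 to 0 at 4 h against 2 h, 1 to 1 and 0 to 0 at 6 h against 2 h, 1 to 1 and 6 to 8 at 12 h against 2 h, and 10 to 12 and 1 to 3 for withdrawal against 2 days. Lower counts moved by over 1.5 times without either 2 h library or the first untreated library after 2 h, either 4 h library or the first untreated library after 4 h, the first untreated library after 1 day, either 12 h library or the first 2 h library at 12 h against 2 h, any library at 6 h against 2 h, and the second 2 day or second withdrawal library for withdrawal against 2 days. Higher counts did so without any library after 2 h and at 4 h against 2 h, either 4 h or the second untreated library after 4 h, the first 1 day or second untreated library after 1 day, either 2 day or the second untreated library after 2 days, and the first untreated library after withdrawal. A lone library left in a group is assumed to vary like the other groups. The cause of these shifts was not tested. With 2 libraries per group the median SE was 0.16, and changes near it lie within the error.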
